A study of Mus musculus with 11 samples.

Results

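Transcript levels of 8 genes of DNA double-strand break signalling and recombination were examined in mouse embryonic stem cells (ESCs): Mdc1, Atm, Atr, Brca1, Brca2, Trp53bp1, Rnf8 and Parp1. They were named by gene symbol, with earlier results of these data known, and all are reported whatever their values. All 8 were found among the 23284 genes of each library and passed the filter on low values. The series holds 11 RNA-seq libraries in 5 groups and asks how the Tet dioxygenases and RNA hydroxymethylation relate to transcript levels and stability. WT ESCs and ESCs with Tet1, Tet2 and Tet3 knocked out (TKO) were sampled before (0 h) and 4 h after addition of α-amanitin at 10 µg/ml, which blocks RNA polymerase II. Each of these 4 groups has 2 libraries of total RNA from which ribosomal RNA had been depleted. A further group of 3 libraries was made from polyA RNA of WT ESCs without α-amanitin. All cells were grown without feeders on gelatin with serum and leukaemia inhibitory factor. The TKO cells were an established line, and the number of independent clones behind them is not stated. The labels call the 0 h libraries non-treated while the protocol also mentions a water vehicle, so which of these applies to them is unclear. The amanitin libraries are described as biological duplicates, and for the polyA libraries there is a general statement that experiments were repeated independently. Where libraries of a group did not come from separate cultures, p-values measure only the spread between the libraries at hand.

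When both strands of DNA break, the kinase ATM phosphorylates the histone variant H2AX next to the break, and MDC1 binds that mark and holds the signalling complex on chromatin. MDC1 recruits the ubiquitin ligase RNF8, which with RNF168 marks chromatin for 53BP1 (Trp53bp1) and for BRCA1. 53BP1 protects the ends and favours end joining, whereas BRCA1 favours resection and, with PALB2, brings in BRCA2, which acts in homologous recombination. ATR, with its partner ATRIP, is the kinase that responds to exposed single-stranded DNA at stalled replication forks, and PARP1 binds breaks and builds ADP-ribose chains around them. ESCs divide fast, spend much of their cycle in S phase and rely heavily on recombination for repair.

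Levels are given in TPM, which corrects the reads of a gene for its length and for the size of the library. For comparisons the TPM values were divided by a size factor per library, which sets the typical gene equal across libraries (scaled TPM), and differences are in log2(scaled TPM + 1) with limma's standard error (SE). A gene passed at a Benjamini-Hochberg adjusted p under 0.05 over all genes tested, and was called when the difference also exceeded 1.5-fold. TPM is relative, so a fall shared by all transcripts after α-amanitin cannot be seen. With 2 libraries in each of 2 groups, full separation often arises by chance, so statements on overlap describe the values and add no support. The share of all genes without overlap was not counted. Recovered reads totalled 25507874 to 29781366 in the ribodepleted and 72639837 to 82129168 in the polyA libraries, and the 8 genes had 1072 to 30968 and 2266 to 69514 reads each, a counting error of at most 3.05% and 2.10%. The knockout showed at Tet1, with scaled TPM of 143 and 124 in WT against 30.0 and 30.2 in TKO at 0 h, and at Tet2, with 55.5 and 48.1 against 7.73 and 7.17, while Tet3 was low in both (1.42 and 1.48 against 1.39 and 1.51). Summed ESC markers were 1491 to 2891 TPM in every library, fibroblast markers 5.87 to 14.3 TPM endoderm markers 1.87 to 4.65 TPM and neural markers 135 to 204 TPM, with Afp at 0 in the ribodepleted WT libraries. ESC marker sums were 2203 and 2241 TPM in WT against 1538 and 1551 TPM in TKO at 0 h, fibroblast sums 8.65 and 8.75 against 12.7 and 13.2 TPM, and neural sums 201 and 204 against 178 and 182 TPM. Single neural markers went both ways: of 4, 1 was called higher and 1 passed lower in TKO at 0 h. Over all genes 27.8% passed higher and 28.2% lower. The part of these shifts in the differences below was not tested.

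In the mouse genome (build NCBIM37) Mdc1 spans chr17:35978460-35996615 and Rnf8 chr17:29751735-29778609, both on the plus strand. Atm (chr9:53247254-53344845, minus) and Atr (chr9:95758016-95852063, plus) share chromosome 9, but far apart. Brca1 is at chr11:101350078-101413193 (minus), Brca2 at chr5:151325205-151372321 (plus), Trp53bp1 at chr2:121020574-121097143 (minus) and Parp1 at chr1:182499086-182531384 (plus). Of the exonic bases of Trp53bp1, 2130 (22.1%) are also exonic in Tubgcp4 on the opposite strand, and the strand setting of the counting is not stated, so the level of Trp53bp1 is uncertain. Rnf8 lies inside Ftsjd2 (chr17:29686744-29842924) on the same strand, with 0 exonic bases shared. Whether unspliced RNA of Ftsjd2 added to the reads of Rnf8 was not tested. Atm starts 306 bases from the divergent gene Npat, and Brca1 269 bases from the divergent gene Nbr1. RefSeq promoters of the 8 genes (GRCm38.p6, reaching just past the start of transcription) hold 19 to 28 CpG dinucleotides in 300 bases, against a median of 7 over 27025 promoters. These counts were above those of 71.6% (Brca1) to 86.0% (Atm) of all promoters. The promoters of Brca1 (chr11:101551906-101552205, minus strand) and Rnf8 (chr17:29614539-29614838, plus strand) are shown because these genes passed higher in TKO than in WT ESCs at both times. Methylation of these promoters was not analysed here, and their CpG counts are within the lower part of the range of the 8. Capitals mark each CpG, 19 in Brca1 and 21 in Rnf8.
Brca1 promoter: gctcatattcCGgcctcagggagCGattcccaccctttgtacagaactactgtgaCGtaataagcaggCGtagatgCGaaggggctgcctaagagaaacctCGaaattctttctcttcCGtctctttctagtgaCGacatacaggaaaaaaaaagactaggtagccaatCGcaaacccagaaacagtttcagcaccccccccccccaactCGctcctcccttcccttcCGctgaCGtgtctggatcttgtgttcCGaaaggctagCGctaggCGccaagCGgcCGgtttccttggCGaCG
Rnf8 promoter: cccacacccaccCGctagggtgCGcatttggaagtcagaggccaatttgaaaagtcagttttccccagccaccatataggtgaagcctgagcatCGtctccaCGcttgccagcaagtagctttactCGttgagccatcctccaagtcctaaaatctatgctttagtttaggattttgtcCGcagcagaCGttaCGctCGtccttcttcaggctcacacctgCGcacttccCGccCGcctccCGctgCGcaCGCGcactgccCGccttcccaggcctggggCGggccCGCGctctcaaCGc
The motif CCAAT was found on either strand in the promoters of Brca1, Rnf8, Mdc1 and Atm and in 37.9% of all promoters. GGGCGG, the core of the GC box, was found in 6 of the 8, not in Brca1 or Brca2, and in 35.9% of all. The ETS core CCGGAAG was in Atm and Atr (9.12% of all), TTTCCCGC, an E2F-type sequence, in Mdc1 and Brca2 (1.11% of all), and TTTGGCGC in none of the 8 (0.537% of all). These matches describe letters in the window only.

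All 8 genes were transcribed in ESCs, at levels that spanned more than an order of magnitude. In WT 0 h libraries the mean was 453 ± 14.6 TPM for Parp1 (SD, n = 2), 75.1 ± 5.31 for Brca1, 42.9 ± 3.73 for Rnf8, 35.5 ± 2.72 for Trp53bp1, 34.9 ± 2.22 for Atm, 31.5 ± 3.60 for Brca2, 30.7 ± 3.15 for Atr and 20.1 ± 1.89 for Mdc1. Parp1 thus stood above 98.6% and Mdc1 above 69.6% of the 19869 genes detected. In this order Trp53bp1 and Atm, Atm and Brca2, and Brca2 and Atr had overlapping libraries, whereas the other neighbours did not. Parp1, Brca1 and Rnf8 were first, second and the third in all 4 ribodepleted groups, and Mdc1 was last in all 4. Their direct partners ranged as widely on the same scale. At 0 h in WT, the histone gene H2afx stood at 464 ± 78.4 TPM and Rif1, which acts with 53BP1 on broken ends, at 302 ± 26.1 TPM. Parp2, the relative of Parp1, was at 71.3 ± 3.39, Rnf168 at 49.1 ± 0.861 and Nbn, the subunit of the MRN break sensor that binds MDC1, at 42.5 ± 1.46 TPM. Palb2 (23.6 ± 1.59), Bard1, the obligate partner of BRCA1 (19.5 ± 0.348), and Atrip (18.7 ± 0.0538 TPM) were each below the gene whose product they bind.

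**Figure D1:**
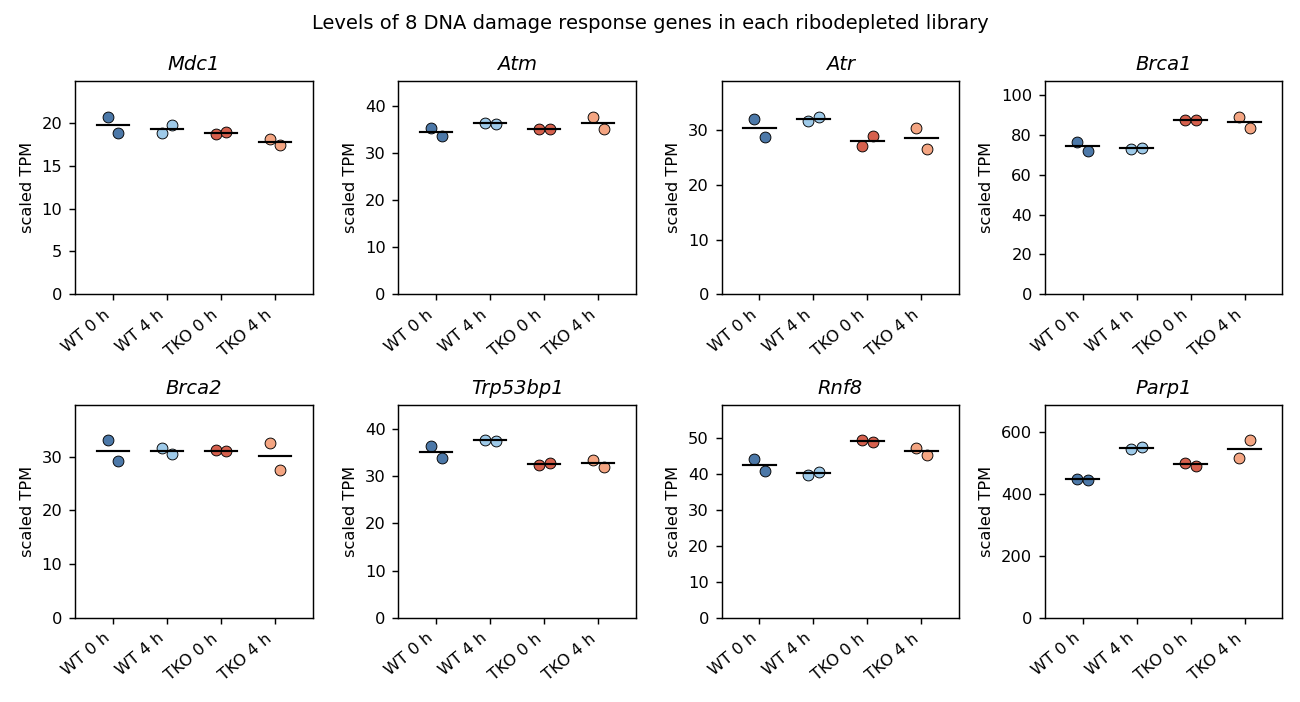
Scaled TPM of the 8 genes (vertical axes from 0) in the 8 ribodepleted libraries, by group (horizontal axes). Each point is 1 library and the line the group mean; Brca1 and Rnf8 sit higher in both TKO groups than in both WT groups, whereas Brca2 and Atm overlap between WT and TKO at 0 h.

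TKO and WT ESCs were compared at each time. Genotype and cell line differ together here, so loss of the Tet enzymes and other differences between the lines cannot be told apart. Brca1 and Rnf8 were modestly higher in TKO at both times, and Trp53bp1 was lower at 4 h. None of the 8 differed by 1.5-fold. At 0 h, 2 of 8 genes passed, both higher, where 56.1% of all 12467 genes passed (27.8% higher and 28.2% lower) and 15.9% were called. At 4 h, 3 of 8 passed, 2 higher and 1 lower, where 59.4% of all genes passed (29.1% higher and 30.3% lower) and 16.8% were called. The shares of these genes that passed were thus below those of the transcriptome. The median difference of the 8 was 0.02 at 0 h and -0.03 at 4 h, beside -0.02 and -0.01 over all genes.

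**Figure D2:**
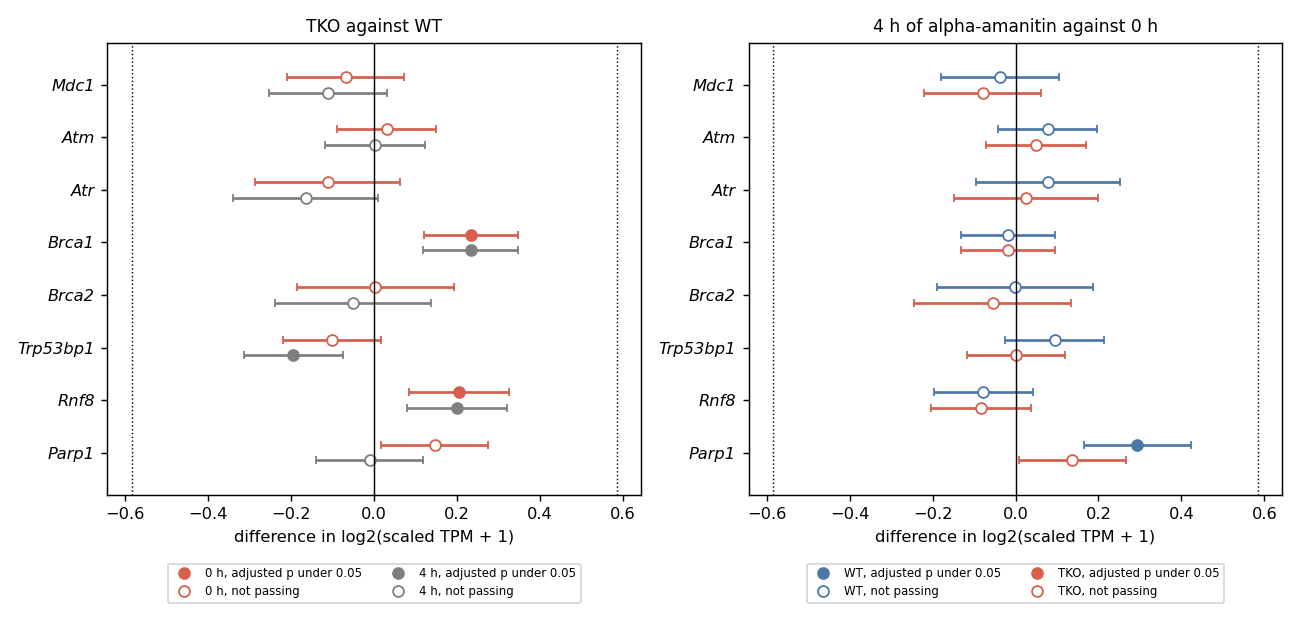
Differences in log2(scaled TPM + 1) for the 8 genes, TKO against WT (left) and 4 h of α-amanitin against 0 h (right), with 95% intervals from limma. Filled points passed at adjusted p under 0.05 and dotted lines mark 1.5-fold; the passing points are Brca1 and Rnf8 at both times, Trp53bp1 at 4 h, and Parp1 in WT after α-amanitin.

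Brca1, the resection and recombination factor, had scaled TPM of 76.5 and 71.9 in WT and 87.4 and 87.3 in TKO at 0 h. After 4 h the WT libraries were at 72.9 and 73.6 and the TKO libraries at 89.2 and 83.3. Every TKO library was above every WT library. The difference was 0.23 (SE 0.05, adjusted p = 0.0040, limma) at 0 h and 0.23 (SE 0.05, adjusted p = 0.0037) at 4 h, with an interval of 0.12 to 0.35 at each time, or 1.18-fold and 1.17-fold. Rnf8, the ligase that MDC1 recruits, gave 44.2 and 40.6 in WT and 49.2 and 48.7 in TKO at 0 h, then 39.6 and 40.6 in WT and 47.0 and 45.3 in TKO at 4 h. Again no TKO library reached down to the WT libraries. Rnf8 was higher by 0.21 (SE 0.05, adjusted p = 0.010, limma) at 0 h and 0.20 (SE 0.05, adjusted p = 0.011) at 4 h. At 0 h Rnf8 no longer passed without TKO 0 h replicate 1 (0.19, adjusted p = 0.066), TKO 0 h replicate 2 (0.21, adjusted p = 0.051) or WT 0 h replicate 2 (0.14, adjusted p = 0.083), and at 4 h without WT 4 h replicate 1 (0.17, adjusted p = 0.078). Each of these settings leaves 1 library in a group that is then assumed to vary like the others. Brca1 passed in every such setting.

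Trp53bp1, whose product opposes resection, moved the other way. Its scaled TPM was 36.3 and 33.9 in WT against 32.4 and 32.8 in TKO at 0 h, a difference of -0.10 (SE 0.05, adjusted p = 0.13, limma). At 4 h it was 37.6 and 37.5 in WT against 33.5 and 31.9 in TKO, a difference of -0.20 (SE 0.05, adjusted p = 0.011). Only the 4 h difference passed, and on the deposited TPM without size factors it was -0.04 (adjusted p = 0.65). Tubgcp4, chosen after the values were seen because its exons overlap those of Trp53bp1 on the opposite strand, was higher in TKO, by 0.26 (adjusted p = 0.0056) at 0 h and 0.30 (adjusted p = 0.0021) at 4 h. Reads of the shared bases cannot be assigned without the strand.

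Mdc1, the adaptor for phosphorylated H2AX, had 20.7 and 18.9 scaled TPM at 0 h in WT and 18.8 and 18.9 in TKO. At 4 h the WT libraries gave 18.8 and 19.7 and the TKO libraries 18.1 and 17.4. Its difference of -0.07 at 0 h (interval -0.21 to 0.07, adjusted p = 0.37, limma) and of -0.11 at 4 h (interval -0.25 to 0.03, adjusted p = 0.15) did not pass, and the sign was positive on deposited TPM (0.02 and 0.04). The kinase gene Atm ran from 33.6 to 37.8 scaled TPM over the 8 libraries, with differences of 0.03 (interval -0.09 to 0.15) at 0 h and 0.00 (interval -0.12 to 0.12) at 4 h. Atr ranged from 26.6 to 32.5, and its differences of -0.11 (adjusted p = 0.24) and -0.17 (adjusted p = 0.092) did not pass. At 4 h both Atr values in WT, 31.6 and 32.5, were above those in TKO, 30.5 and 26.6, and the difference passed with voom (-0.17, adjusted p = 0.031) and without TKO 4 h replicate 1 (-0.26, adjusted p = 0.022). Brca2, which acts in homologous recombination, overlapped between genotypes at both times, from 27.6 to 33.0, with differences of 0.00 (interval -0.19 to 0.19) and -0.05 (interval -0.24 to 0.14).

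Parp1, the most abundant of the 8, had 449 and 446 scaled TPM at 0 h in WT libraries and 501 and 489 in those of TKO. That difference of 0.15 (SE 0.06, interval 0.02 to 0.27) fell short of the threshold (adjusted p = 0.054, limma). It passed on deposited TPM (0.24, adjusted p = 0.0012), with quantile normalisation (0.25, adjusted p = 0.0016), with a mean above 5 (0.17, adjusted p = 0.026), with voom on recovered reads (0.15, adjusted p = 0.021) and without either TKO 4 h library (adjusted p = 0.0081 and 0.0070). At 4 h the groups overlapped, as WT had 546 and 551 while TKO had 517 and 573, and the difference was -0.01 (adjusted p = 0.88). It was 0.15 (adjusted p = 0.015) on deposited TPM and 0.13 (adjusted p = 0.031) with quantile normalisation, so the 4 h comparison of Parp1 depended on the scaling. Deposited TPM shifts the median of all genes by 0.07 at 0 h and 0.14 at 4 h between genotypes, and by -0.11 in WT and -0.07 in TKO after α-amanitin, whereas with size factors these medians were within 0.03 of 0.

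The rest of the damage response was described with 84 further genes in 5 lists (break sensing and checkpoint signalling 25, homologous recombination 23, end joining and its choice 14, ADP-ribosylation 9, Fanconi anaemia 13), all of which were tested. At 0 h, 15 of the 84 were higher and 31 lower in TKO, with a median of -0.10, and at 4 h 10 were higher and 31 lower, with a median of -0.09. Over all genes 27.8% passed higher and 28.2% lower at 0 h, and 29.1% and 30.3% at 4 h. On deposited TPM the split was 17 higher and 16 lower at 0 h and 23 higher and 16 lower at 4 h, so the surplus of lower genes was not seen under that scaling. In break sensing 4 of 25 passed higher and 9 lower at 0 h, in homologous recombination 7 and 7 of 23, in end joining 3 and 6 of 14, in the Fanconi list 1 and 4 of 13, and in ADP-ribosylation 0 and 5 of 9. The genes called were Brip1 and Polm, both higher, at both times, and Fancf, lower, at 0 h. With quantile normalisation Polm was under 1.5-fold at both times (0.47 and 0.53), as was Fancf on deposited TPM (-0.52). Brip1, the helicase that binds BRCA1, averaged 7.35 ± 0.232 scaled TPM in WT libraries against 13.3 ± 0.0695 in those of TKO (n = 2 each), a difference of 0.78 (SE 0.07, adjusted p = 2.5e-05, limma) at 0 h, and differed by 0.81 at 4 h. Polm, an end-joining polymerase, differed by 0.59 at 0 h, just past 1.5-fold, and by 0.69 at 4 h. Fancf, a subunit of the Fanconi core complex, was at 19.8 ± 0.654 in WT and 12.6 ± 0.305 in TKO at 0 h, a difference of -0.61 (adjusted p = 0.00091).

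Direct partners did not all move with their member. Bard1 was higher in TKO with Brca1 at 0 h (0.15, adjusted p = 0.028, limma), but not past the threshold at 4 h (0.07, adjusted p = 0.26) nor at 0 h with quantile normalisation (adjusted p = 0.059). On deposited TPM Bard1 passed at both times (0.25, adjusted p = 0.011, and 0.22, adjusted p = 0.017). Rnf168, which extends the ubiquitin marks begun by RNF8, was lower where Rnf8 was higher, by -0.25 (adjusted p = 0.0034) at 0 h and -0.28 (adjusted p = 0.0014) at 4 h. Nbn was lower by -0.43 (adjusted p = 0.00070) and -0.52 (adjusted p = 0.00020), and stayed past the threshold with deposited TPM and quantile normalisation. Rif1 was lower by -0.33 and -0.37, and Parp2 by -0.20 and -0.24, all past the threshold. On deposited TPM the values were -0.15 and -0.13 for Rnf168, -0.24 and -0.22 for Rif1 and -0.10 and -0.09 for Parp2, of which only Rif1 at 0 h passed. With quantile normalisation Rif1 passed at neither time (adjusted p = 0.076 and 0.093). H2afx passed only at 4 h (-0.39, adjusted p = 0.013), and not on deposited TPM (-0.23, adjusted p = 0.072) or with quantile normalisation (-0.16, adjusted p = 0.24). Palb2 and Atrip passed at neither time with size factors, and both were higher at 4 h on deposited TPM (0.26 each, adjusted p = 0.041 and 0.018). Genes of the cell cycle also differed between the genotypes. Of 12 S phase genes 7 were lower and 1 higher in TKO at 0 h (median -0.19), and of 10 G2 and mitosis genes 8 were lower (median -0.32), where 27.8% of all genes passed higher and 28.2% lower. On deposited TPM 5 of the S phase genes were lower and 3 higher, and 6 of the G2 and mitosis genes were lower. The S phase median was then -0.09, and -0.06 with quantile normalisation. Their part in the differences of the 8 genes was not tested.

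**Figure D3:**
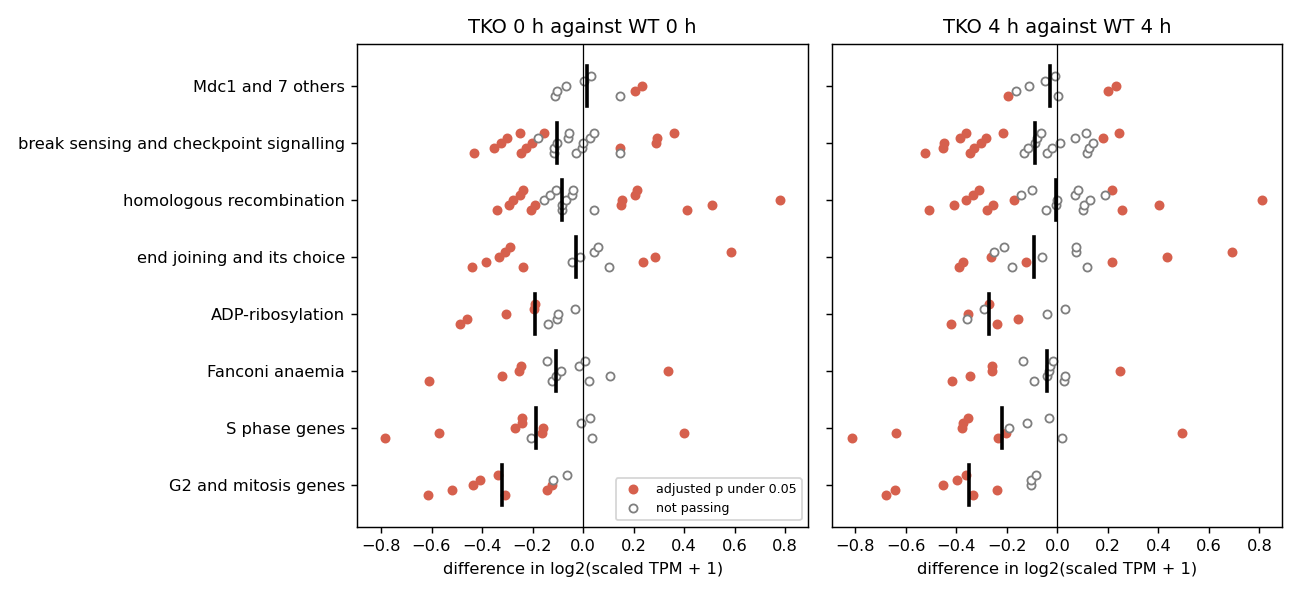
Differences in log2(scaled TPM + 1) between TKO and WT ESCs (horizontal axis) at 0 h (left) and 4 h (right) for the 8 genes and for each list of genes (rows). Each point is 1 gene, filled where it passed at adjusted p under 0.05, and the bar is the median of the list; the median of the 8 genes is near 0 while those of the G2 and mitosis genes are -0.32 and -0.35.

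Inhibition of transcription for 4 h asks which transcripts fell or persisted relative to the rest. In WT ESCs Parp1 rose relative to other transcripts, from 449 and 446 to 546 and 551 scaled TPM. The difference was 0.29 (SE 0.06, adjusted p = 0.0079, limma), or 1.23-fold, with no overlap. It was the only 1 of the 8 to pass, where 37.7% of all genes passed (21.9% higher and 15.8% lower) and 2.1% were called. On deposited TPM Parp1 rose by 0.13 (adjusted p = 0.043), and without WT 4 h replicate 1 it no longer passed, at a difference of 0.31 (adjusted p = 0.052). The remaining 7 lay between -0.08 for Rnf8 and 0.09 for Trp53bp1, and their intervals all ended short of 1.5-fold. Atm and Trp53bp1 were above their 0 h libraries in both 4 h libraries (Atm 36.5 and 36.3 after 35.3 and 33.6, Trp53bp1 37.6 and 37.5 after 36.3 and 33.9), without passing (adjusted p = 0.27 and 0.18). Mdc1 gave -0.04 (interval -0.18 to 0.10), Brca1 -0.02 (interval -0.13 to 0.10) and Brca2 -0.0015 (interval -0.19 to 0.19). On deposited TPM Rnf8 was lower by 0.23 on the log2 scale (-0.23, adjusted p = 0.042).

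In TKO ESCs none of the 8 passed after α-amanitin (limma; 1 at an unadjusted p under 0.05, and 0 with voom on recovered reads), where 0.265% of all genes passed and 0.16% were called. Parp1 moved in the same direction as in WT, from 501 and 489 to 517 and 573 scaled TPM, a difference of 0.14 (interval 0.01 to 0.27, adjusted p = 0.18). The 2 TKO libraries at 4 h were far apart for several genes. TKO 4 h replicate 2 was below replicate 1 in 7 of the 8, as for Brca2 (27.6 against 32.5), and WT 0 h replicate 2 was below replicate 1 in all 8. The median of replicate 2 minus replicate 1 for the 8 was -0.08 in TKO 4 h and -0.11 in WT 0 h. Over all genes it was 0.0007 and -0.0005. In both pairs the difference ran with transcript length over 12451 genes. Spearman's rho was -0.30 in TKO 4 h and -0.34 in WT 0 h, a description across genes. Of these 8 transcripts, 7 are longer than those of most genes. Rnf8, above only 34.2% of genes in length, was also lower in both pairs, whereas Parp1, above 70.2%, was higher in TKO 4 h replicate 2. The part of length in these replicate differences was not tested. Without TKO 4 h replicate 1, Parp1 passed in TKO as well (0.21, adjusted p = 0.018). Mdc1 gave -0.08 (interval -0.22 to 0.06) and Rnf8 -0.08 (interval -0.20 to 0.04), in each case with both 4 h libraries below both 0 h libraries.

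Whether the response to α-amanitin differed between the genotypes was tested as the interaction. No gene of the 8 passed (limma, 0 at an unadjusted p under 0.05), and 0% of all genes passed or were called, with 938 of 12467 at an unadjusted p under 0.05 and 0 passing with voom. The estimate was -0.16 for Parp1 (SE 0.08, interval -0.34 to 0.02, adjusted p = 0.69) and -0.09 for Trp53bp1 (interval -0.26 to 0.08). All 8 estimates were below 0 with size factors, and 6 of them were above 0 on deposited TPM. The median over all genes moved likewise, from -0.02 with size factors to 0.04 on deposited TPM. The widest interval, for Brca2, ran from -0.32 to 0.21, so differences in response above 1.5-fold lay outside all 8 intervals. A failure to pass does not show that the responses were alike.

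Of the direct partners named above, only Palb2 and Atrip passed lower in WT after α-amanitin, where 15.8% of all genes passed lower. Bard1 (0.04), H2afx (0.16), Nbn (0.05), Parp2 (0.07), Rnf168 (-0.11) and Rif1 (-0.10) did not pass. The contrast between a partner and its member was not tested. Palb2, the bridge between BRCA1 and BRCA2, fell from 23.3 ± 0.932 to 18.6 ± 1.10 scaled TPM (n = 2 each), by 0.31 on the log2 scale (-0.31, adjusted p = 0.012, limma). Atrip fell from 18.5 ± 0.457 to 15.2 ± 0.528 (-0.27, adjusted p = 0.013). Both also passed lower on deposited TPM and with quantile normalisation. Brca2 and Atr, whose products they bind, gave -0.0015 and 0.08 and did not pass. Npat, the divergent neighbour of Atm picked by position after the values were seen, fell by 0.39 (-0.39, adjusted p = 0.014), from 33.3 ± 1.26 to 25.1 ± 1.28, whereas Atm gave 0.08 (adjusted p = 0.27). Nbr1, the divergent neighbour of Brca1 picked in the same way, rose by 0.15 (adjusted p = 0.029) in WT, though not on deposited TPM (-0.0073) or with quantile normalisation (0.05). Of the 84 listed genes, 18 were higher and 14 lower in WT after 4 h and 0 were called, where 21.9% of all genes passed higher and 15.8% lower. On deposited TPM 2 of the 84 were higher and 21 lower, beside 397 and 3145 of all 12481 genes. In TKO 0 of the 84 passed (5 with voom), and for the interaction 0 passed under limma and voom.

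Untreated WT ESCs were also sequenced from polyA RNA, which selects transcripts with a poly(A) tail, whereas ribodepletion keeps all but ribosomal RNA. Mdc1 was the only 1 of the 8 higher in polyA RNA, at more than 2-fold, and all others were lower. All 8 passed, 1 higher and 7 lower, and 5 were called. Over all 12481 genes of this comparison 81% passed, 40.1% higher and 40.8% lower, and 35.1% were called, 18.7% higher and 16.4% lower. The median of the 8 was -0.73, beside -0.01 over all genes. The selection method differs together with the sequencing experiment and its depth, and these cannot be told apart.

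Mdc1 had scaled TPM of 21.9 and 19.9 in the ribodepleted WT 0 h libraries and 48.9, 48.9 and 44.7 in the polyA libraries. The groups were far from overlapping, with a difference of 1.15 (SE 0.06, adjusted p = 2.9e-07, limma), or 2.21-fold. Atm went the opposite way, from 37.3 and 35.5 to 16.1, 15.8 and 14.6, a difference of -1.18 (SE 0.05). Brca1 went from 80.7 and 76.0 to 39.6, 38.9 and 37.6, a difference of -0.998 (SE 0.04). Trp53bp1 (-1.01, SE 0.05) and Brca2 (-0.93, SE 0.07) were lower to a like degree, at 18.2, 18.1 and 17.4 and at 17.6, 17.1 and 15.4 in polyA RNA. Atr (-0.53, SE 0.06) and Rnf8 (-0.52, SE 0.05) were about 0.7 of their ribodepleted level, past the threshold but under 1.5-fold. Without WT 0 h replicate 2, both were past 1.5-fold too, and 7 of the 8 were called. Parp1 was nearly level, at 474 and 471 against 435, 428 and 432. Its difference of -0.13 (adjusted p = 0.0079, limma) was lost on deposited TPM (-0.03, adjusted p = 0.47).

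**Figure D4:**
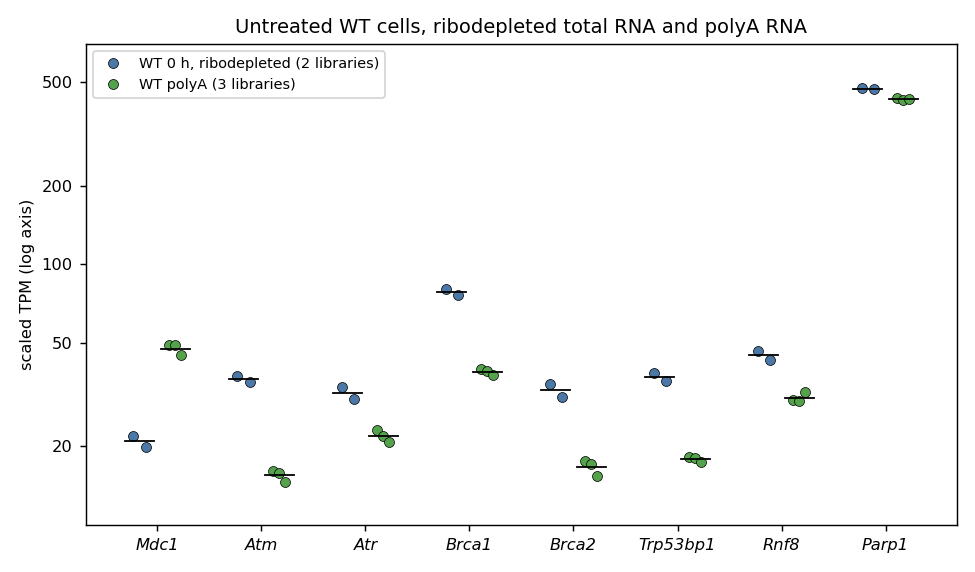
Scaled TPM (log axis) of the 8 genes in WT ESCs without α-amanitin, in 2 ribodepleted and 3 polyA libraries. Each point is 1 library and the line the mean; Mdc1 is higher in polyA RNA, at 44.7 to 48.9 against 19.9 and 21.9, and the other genes are lower.

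The order of the genes changed accordingly. Mdc1, last of the 8 in every ribodepleted group, was second in polyA RNA at 48.9 ± 3.01 TPM (SD, n = 3). It stood behind Parp1 at 444 ± 4.48, and Atm became last at 16.0 ± 0.994. Brca1 was next at 39.8 ± 1.40, then Rnf8 (31.7 ± 1.12), Atr (22.6 ± 1.42), Trp53bp1 (18.4 ± 0.620) and Brca2 (17.2 ± 1.32), and in this order only Trp53bp1 and Brca2, and Brca2 and Atm, had overlapping libraries. Over 12471 genes the polyA difference ran weakly with transcript length (Spearman's rho -0.16, across genes). Mdc1 was above 94.7% of genes in length and above 94.2% in its difference, and Atm was above 99.3% in length and 5.02% in its difference. Of the 84 listed genes 26 were higher and 44 lower in polyA RNA, and 7 and 13 were called, or 13 and 10 on deposited TPM. Over all genes 40.1% passed higher and 40.8% lower, and 18.7% and 16.4% were called. Among the called genes were Macrod1, which removes ADP-ribose (1.97), on the higher side, and Parg, which degrades ADP-ribose chains (-1.15), Parp3 (-1.13) and Rif1 (-0.997) on the lower side.

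Over the 8 ribodepleted libraries, Brca1 and Rnf8 varied most alike of the 28 pairs of the 8 genes (Pearson's r = 0.95 on the log2 scale), followed by Atr and Trp53bp1 (r = 0.92). Trp53bp1 ran against both Brca1 (r = -0.75) and Rnf8 (r = -0.76). Among all genes tested, those most like Brca1 were Zcchc11, a terminal uridylyltransferase (r = 0.997), Bcor, a corepressor of a Polycomb complex (r = 0.99), and Dennd1b (r = 0.99). Those most like Mdc1 were Slc25a27 (r = 0.96), Adar, the adenosine-to-inosine RNA editing enzyme (r = 0.96), and 4933416M07Rik (r = 0.94). These are descriptions over 8 libraries in 4 groups, which share genotype, treatment and size factors.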

How the data were processed

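RNA-seq of WT and TKO ESCs was taken as deposited. The authors filtered reads with AfterQC, removed ribosomal and transfer RNA reads with Bowtie2, trimmed with Trimmomatic, aligned to mm9 (STAR, RefSeq annotation), counted with HTSeq and deposited 1 TPM value per gene and library. Versions and the strand setting are not given in the sources used here. Groups came from sample titles. TPM was divided by median-of-ratios size factors, and log2(scaled TPM + 1) of genes with a mean above 1 was fitted with limma 3.58.1 (R 4.3.3, trend), 1 coefficient per group over the 8 ribodepleted libraries (12467 genes) and separately over the 5 libraries of the polyA comparison (12481 genes). The pseudocount understates changes of low genes. p-values are two-sided and adjusted over all genes tested. Whole reads were recovered from TPM ratios for 100% of 19869 genes (relative tolerance 1e-11), and replicates differed beyond sampling noise (chi-square at least 1.53 times its degrees of freedom). For pairing, replicate 2 minus replicate 1 was taken per gene in each ribodepleted group. These differences correlated between groups at -0.04 to 0.12, so numbers were not treated as pairs. The fit was tested on simulated data with the same spread in all libraries and no shift with transcript length. That test therefore does not cover the replicate differences described above. Named genes were the 8 genes, their partners, the Tet genes, up to 3 called genes per direction and comparison from the lists, and the 3 genes most like Mdc1 and Brca1; values of some genes that the rule names are not reported here. The 8 genes and the lists were chosen with earlier results of these data known. Promoters and positions came from RefSeq and GENCODE, on builds named with them.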

Additional observations from a re-analysis of the deposited data

How the results depend on the processing

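Differences that passed kept their sign under every alternative run (deposited TPM, quantile normalisation, pseudocounts of 0.1 and 5, no filter or a mean above 5, no variance trend, the replicate block, each library left out, and voom on recovered reads, which was chosen after seeing the data), and 14 of 48 differences passed. Of 792 recomputed differences 772 stayed on their side of the threshold, 8 no longer passed and 12 newly passed. The sign changed in 66, none of them among the differences that passed, and 2 of the 66, both Parp1 between genotypes at 4 h, newly passed. With 2 libraries per group and TPM only, differences of about 0.1 are within the intervals. The cause of these changes was not tested.

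Counts of genes passing moved as follows. On deposited TPM 1 gene passed lower in WT after α-amanitin and 0 passed lower in TKO at 4 h, and voom gave 2 lower at 4 h. Parp1 joined Brca1 and Rnf8 as higher in TKO at 0 h and 4 h on deposited TPM and with quantile normalisation. At 0 h it also did so with a mean above 5 and with voom. Leaving out single libraries gave 0 to 1 higher in WT and 0 to 1 higher in TKO after α-amanitin, 1 to 3 higher in TKO at 0 h, and 1 to 2 higher and 1 to 2 lower at 4 h. With the replicate block the counts were 1 (WT after α-amanitin), 0 (TKO after α-amanitin), 2 (TKO at 0 h), 2 higher and 1 lower (TKO at 4 h), and 1 higher and 6 lower in polyA RNA, where Parp1 was lost (adjusted p = 0.063). Of all genes, 5500 passed in WT after α-amanitin without TKO 4 h replicate 2 and 378 without WT 4 h replicate 1, and 2800 passed in TKO without TKO 4 h replicate 1, against 4695 and 33. In TKO 737 passed with voom and 0 without the variance trend, and for the interaction 4 passed with no filter and up to 8 with a library left out. The pseudocount of 5 lowered the genes called between genotypes from 1986 to 904 at 0 h and from 2100 to 999 at 4 h. On deposited TPM 397 genes passed higher and 3145 lower in WT after α-amanitin, against 2730 and 1965, 4168 higher and 2191 lower between genotypes at 0 h, against 3471 and 3518, and 5035 higher and 2066 lower at 4 h, against 3625 and 3779.

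On deposited TPM the sign changed for Atm (-0.078), Atr (-0.076) and Trp53bp1 (-0.061) in WT after α-amanitin, for Atm (-0.046), Atr (-0.069) and Trp53bp1 (-0.094) in TKO after α-amanitin, for Mdc1 (0.017), Atm (0.032), Atr (0.0076), Brca1 (0.060), Brca2 (0.0064) and Rnf8 (0.054) for the interaction, for Mdc1 (0.022) between genotypes at 0 h, for Mdc1 (0.039), Brca2 (0.10) and Parp1 (0.15) between genotypes at 4 h. With a mean above 5 the sign changed for Trp53bp1 (-0.0071) in TKO after α-amanitin, for Brca1 (0.014) and Rnf8 (0.0081) for the interaction, for Parp1 (0.028) between genotypes at 4 h. With no filter the sign changed for Brca2 (0.0077) in WT after α-amanitin, for Atm (-0.0038) and Brca2 (-0.031) between genotypes at 0 h, for Atm (-0.038) between genotypes at 4 h. With quantile normalisation the sign changed for Brca2 (0.0082) in WT after α-amanitin, for Brca1 (0.022) for the interaction, for Parp1 (0.13) between genotypes at 4 h.

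Leaving out single libraries gave ranges that crossed 0. In WT after α-amanitin these were -0.10 to 0.026 for Mdc1, -0.062 to 0.025 for Brca1 and -0.088 to 0.083 for Brca2. In TKO after α-amanitin these were -0.0015 to 0.10 for Atm, -0.067 to 0.12 for Atr, -0.065 to 0.030 for Brca1, -0.17 to 0.060 for Brca2 and -0.032 to 0.036 for Trp53bp1. For the interaction these were -0.10 to 0.023 for Mdc1, -0.075 to 0.025 for Atm, -0.14 to 0.042 for Atr, -0.044 to 0.048 for Brca1, -0.16 to 0.061 for Brca2 and -0.064 to 0.053 for Rnf8. Between genotypes at 0 h these were -0.012 to 0.059 for Atm and -0.089 to 0.082 for Brca2. Between genotypes at 4 h these were -0.047 to 0.057 for Atm, -0.16 to 0.067 for Brca2 and -0.082 to 0.068 for Parp1.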
